A study of Mus musculus with 4 samples.

Results

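Neutrophils load their granules in waves, and the genes described here are 10 of the 26600 genes listed in all 4 count tables of the series. They were chosen by name as rows of the tables, in 3 granule classes. The 4 primary, or azurophil, genes were Elane (neutrophil elastase), Mpo (myeloperoxidase), Prtn3 (proteinase 3) and Ctsg (cathepsin G). The 3 secondary, or specific, genes were Ltf (lactoferrin, an iron-binding protein), Camp (the precursor of the cathelicidin antimicrobial peptide) and Ngp (neutrophilic granule protein). The 3 late genes were Mmp8 (neutrophil collagenase) and S100a8 and S100a9, which encode the 2 chains of calprotectin, a calcium- and zinc-binding complex that fills the neutrophil cytosol. All 10 were listed and detected in all 4 libraries.

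The libraries hold single endosteal bone marrow cells of male B6SJL/F1 mice in which Col2-Cre switches on the Rosa26 lsl-tdTomato reporter (Col2:Td mice), sorted for Td+ cells and, where no clear Td+ peak was seen, for the brightest cells. Groups are ages of 1, 1.5, 3 and 16 months, and each age is 1 library, pooled from 2 mice at 1 month and from 3 at the other ages. No age has a replicate, so no p-value is given, a difference between ages cannot be told apart from a difference between libraries, and all values are descriptions with intervals. The Col2 promoter is used to mark skeletal cells and their descendants, so the granulocytes described here were not the target of the sort, and their share of a library also follows the gate.

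Granules take their content from whatever a cell synthesises while that granule type is being formed. Primary granules form in promyelocytes, secondary granules in myelocytes and metamyelocytes, tertiary (gelatinase) granules in band cells, and secretory vesicles last, so the transcripts of each class are known to follow each other during maturation. C/EBP-alpha, PU.1, GFI1 and RUNX1 are known to act on primary granule genes, and C/EBP-epsilon is known to be needed for secondary ones.

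After the stated limits on genes and mitochondrial UMIs (unique molecular identifiers, which count RNA molecules), the 1, 1.5, 3 and 16 month libraries held 8308, 5453, 4180 and 6143 cells. The median depth of these cells lay between 6264 UMIs at 3 months and 10279.5 UMIs at 1 month. By age, 2850, 79, 765 and 412 of them were granulocyte-like (34.3%, 1.45%, 18.3% and 6.71%). The 1 month count includes a cluster of 150 cells led by Jchain, Ms4a1 and Ly6d that was named B lineage. The share of all UMIs that these 10 genes took was 12.5%, 0.195%, 6.04% and 2.05% in the same order of ages. Of these UMIs, 87.5% to 97.5% lay in the granulocyte-like cells of each library. Pairs of libraries shared at most 61 cell barcodes, with 61 between 1 and 1.5 months, 49 between 1 and 3 months, 30 between 1.5 and 3 months, and 1 or 2 in each pair with 16 months.

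Stages were named from 43 marker genes that include none of the 10 granule genes, and the granule genes were also left out of the clustering. The stages were granulocyte progenitor (markers such as Cd34, Kit and Ms4a3), cycling neutrophil precursor (Mki67, Top2a), post-mitotic immature neutrophil (Ly6g, Ifitm6) and mature neutrophil (Cxcr2, Il1b, Retnlg). At 1 month they held 370, 911, 382 and 558 cells, and at 3 months 135, 164, 154 and 91 cells. At 16 months only the immature (117 cells) and the mature stage (149 cells) were found. The 79 granulocyte-like cells at 1.5 months formed 1 subcluster and so were not divided into stages. They also carried markers of 7 other cell types, but with no other subcluster to compare with, this count says little. At a higher clustering resolution (1.2) these 79 cells did split. The largest subclusters were 26 cells led by Prg2, Prss34 and Vpreb3 and 24 led by Col1a1, Bglap and Bglap2, so not all may be granulocytes. The mature stage at 3 months was led by Ppbp, Gm5483, Ccl6, Cxcl2 and Pf4, of which Ppbp and Pf4 are platelet genes. The progenitors at 3 months were led by Jchain, Elane, Ctsg, Nkg7 and Prtn3, and Jchain also led the B lineage cluster counted in at 1 month. Before thinning, 94.1% of these progenitors had an Elane UMI. In all, 629 granulocyte-like cells at 1 month, 221 at 3 months and 146 at 16 months lay in subclusters that were not named, most of which carried markers of other lineages. These cells are part of the granulocyte-like level that is used as a reference below.

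Several of the genes are neighbours in the genome (GENCODE M21, GRCm38). Prtn3 (chr10:79874476-79883174) ends 3072 bases before Elane (chr10:79886247-79888215), both on the plus strand. S100a8 (chr3:90668978-90670035) and S100a9 (chr3:90692632-90695721) lie 22596 bases apart on opposite strands. Chromosome 9 holds all 3 secondary genes, Camp (chr9:109847379-109849617), Ngp (chr9:110419747-110423012) and Ltf (chr9:111019271-111042767), and Mmp8 (chr9:7558456-7568485) far from them. The secondary genes are not close neighbours, with 570129 bases between Camp and Ngp and 596258 between Ngp and Ltf. Mpo (chr11:87793581-87804413) and Ctsg (chr14:56099881-56102574) stand alone. Mpo overlaps the antisense gene Gm11505 and Prtn3 overlaps Plppr3 on the other strand, so reads from the shared stretches could be counted for either if strand was not used.

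Promoters from RefSeq (GRCm38.p6) were found for all 10 genes. Those of the neighbours Elane and Prtn3, of the 3 secondary genes and of Mmp8 are shown as examples of each class, searched for the letters of a PU.1 core (GAGGAA) and of a C/EBP core (TTNNGCAA). Each line is the 250 bases before the transcription start, and capitals mark every match of either motif on either strand (GAGGAA reads TTCCTC on the other strand). Ltf and Mmp8 hold matches of both motifs and Camp of neither.
Elane, chr10:79886062-79886311, plus strand: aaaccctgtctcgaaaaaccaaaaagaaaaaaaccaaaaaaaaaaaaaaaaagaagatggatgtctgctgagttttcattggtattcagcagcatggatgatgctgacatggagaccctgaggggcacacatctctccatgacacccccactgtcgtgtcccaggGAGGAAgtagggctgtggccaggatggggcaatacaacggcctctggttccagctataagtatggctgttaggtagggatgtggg
Prtn3, chr10:79879417-79879666, plus strand: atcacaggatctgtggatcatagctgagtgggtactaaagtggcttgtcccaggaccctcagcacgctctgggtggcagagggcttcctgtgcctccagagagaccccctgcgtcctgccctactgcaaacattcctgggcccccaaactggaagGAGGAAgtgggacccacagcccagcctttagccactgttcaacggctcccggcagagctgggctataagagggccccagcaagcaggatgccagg
Ltf, chr9:111019042-111019291, plus strand: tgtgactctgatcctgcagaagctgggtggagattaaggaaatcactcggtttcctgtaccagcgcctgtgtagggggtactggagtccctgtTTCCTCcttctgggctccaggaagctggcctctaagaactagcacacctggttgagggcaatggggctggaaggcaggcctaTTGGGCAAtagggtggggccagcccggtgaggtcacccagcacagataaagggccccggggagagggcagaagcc
Camp, chr9:109849457-109849706, minus strand: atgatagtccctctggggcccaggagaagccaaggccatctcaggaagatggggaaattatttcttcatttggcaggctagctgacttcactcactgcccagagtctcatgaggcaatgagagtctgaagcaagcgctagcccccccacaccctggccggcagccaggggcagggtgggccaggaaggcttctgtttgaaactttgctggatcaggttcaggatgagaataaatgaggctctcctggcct
Ngp, chr9:110419558-110419807, plus strand: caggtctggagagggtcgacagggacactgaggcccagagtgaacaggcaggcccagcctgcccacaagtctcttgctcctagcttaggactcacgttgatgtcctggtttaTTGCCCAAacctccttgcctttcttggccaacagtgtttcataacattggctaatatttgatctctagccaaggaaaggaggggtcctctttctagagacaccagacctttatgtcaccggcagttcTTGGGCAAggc
Mmp8, chr9:7558179-7558428, plus strand: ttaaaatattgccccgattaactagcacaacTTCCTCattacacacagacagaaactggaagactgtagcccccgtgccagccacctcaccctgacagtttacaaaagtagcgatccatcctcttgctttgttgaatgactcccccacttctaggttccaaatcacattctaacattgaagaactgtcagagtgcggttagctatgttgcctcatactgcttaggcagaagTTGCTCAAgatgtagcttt

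In windows from 250 bases before to 50 after the start, GAGGAA was found on one strand or the other in all 4 primary promoters and in 7 of the 10, beside 28.3% of 32851 mouse promoters of that length. TTNNGCAA was found in 4 of the 10 (2 matches in Ngp and 1 each in Ltf, Mmp8 and S100a9) and in none of the primary ones, beside 10.8% of all promoters. The letters of a TATA box (TATAAA, either strand) were found in 4 of the 10, beside 13.6% of all promoters. No GAGGAA match overlapped a TTNNGCAA match in these 10 windows, and a match is a stretch of letters, not a bound site.

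All 4 primary genes were highest in the progenitors at 1 and at 3 months. This was also true of 63.2% of the 4856 genes measured in these stages at 1 month and of 60.4% of 4933 at 3 months, so being highest there is common among genes. Levels are summed UMIs over all UMIs of the cells concerned, scaled to 1000000 (CPM), with exact Poisson 95% intervals that, like all intervals here, cover counting error only. Elane, a serine protease, was at 18073 CPM (17987 to 18160) in progenitors at 1 month and at 2182, 317 and 1227 CPM in cycling, immature and mature cells. At 3 months it was at 18024 CPM (17829 to 18221), 1895, 36.8 and 208 CPM. Progenitors of both libraries thus held almost the same Elane level, and the mean of each later stage was higher at 1 month than at 3 months. The median cycling cell held 305 CPM at 1 month and no UMI at 3 months. Elane was also found in cells that should lack it (below), and whether the later levels are the cells' own transcripts was not tested.

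Mpo, which makes hypochlorous acid, was at 9503, 696, 149.6 and 646 CPM from progenitor to mature at 1 month and at 7459, 378, 25.9 and 52.5 CPM at 3 months. Prtn3, the serine protease next to Elane, was at 8872, 1129, 178 and 699 CPM at 1 month and at 7238, 700.0, 24.5 and 82.6 CPM at 3 months. Ctsg, the third serine protease, was at 6135, 281, 85.1 and 491 CPM at 1 month and at 6446, 128, 12.3 and 18.8 CPM at 3 months. From progenitor to immature, the 4 genes fell by 49.7-fold (Prtn3) to 72.1-fold (Ctsg) at 1 month and by 288-fold (Mpo) to 526-fold (Ctsg) at 3 months. The first step was already steep. Between progenitor and cycling cells at 1 month, Elane fell by 3.05 and Mpo by 3.77 on the log2 scale.

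The level left in immature neutrophils at 1 and 3 months was no higher than that in mesenchymal cells for any of the 4 genes. Mesenchymal cells, which should lack these genes, held Elane at 404 CPM at 1 month, above the 317 CPM of immature neutrophils, and at 61.4 CPM at 3 months, above the 36.8 CPM there. The median mature neutrophil at 1 month held 216 CPM of Elane while the mean was 1227 CPM. The mean depended on the clustering, since without regression of depth and mitochondrial percentage the mature subclusters held Elane at 230.0 and 238 CPM and the immature one at 243 CPM, with no rise from immature to mature. After every cell was thinned to 3000 UMIs, 3.23% of the 558 mature cells (Clopper-Pearson 95% interval 1.92 to 5.05%) had at least 10 UMIs of primary genes, against 99.7% of progenitors. With progenitor and mature cells compared at 1 month, the log2 ratio was −3.88 for Elane and Mpo, −3.67 for Prtn3 and −3.64 for Ctsg, beside a median of −0.97 over the 4749 genes compared. CPM are shares of a fixed total, so the rise of S100a8, S100a9 and the secondary genes (below) by itself lowers all other genes. That median and the share of genes highest in progenitors (above) are thus not independent of the 10 genes. Leaving out the cells with the highest doublet scores moved the count of primary genes highest in progenitors at 1 month from 4 to 0, since the cells then named progenitor were 137 led by Ctla2a, Car1 and Rgs1, while 349 of the 370 progenitors lay in an unnamed subcluster with Elane at 17468 CPM.

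At 16 months the progenitor stage was not among the named ones, and none of the 4 primary genes was highest in the earliest named stage, the immature neutrophils, against 25.1% of 4231 genes. Immature cells held 8 Elane UMIs in all (7.71 CPM, 3.33 to 15.2) and 2 Mpo UMIs (1.93 CPM, 0.233 to 6.96). Mature cells held Elane at 403 CPM, Mpo at 339.7 CPM, Prtn3 at 377 CPM and Ctsg at 193 CPM. Of the thinned mature cells, only 1.98% had an Elane UMI, so the mature mean rested on few cells. A subcluster of 48 cells led by Elane, Mpo, Prtn3 and Ctsg was left unnamed because it carried megakaryocyte and monocyte markers. It was also under the 50 cells required for a stage to be used. It held Elane at 7602 CPM, Mpo at 5639.9 CPM, Prtn3 at 7394 CPM and Ctsg at 4589.7 CPM.

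The secondary genes were low in progenitors, rose in cycling precursors and were at or near their peak in the immature stage. All 6 secondary and late genes were at least 2-fold higher in mature cells than in progenitors at 1 and at 3 months, beside 12.7% of 4749 genes and 17.1% of 4796 genes. Ltf was at 442 CPM in progenitors at 1 month and at 7955, 13223 and 9573 CPM in the later stages. At 3 months its levels were 358, 7612, 14102 and 7611 CPM, so that it peaked in immature cells in both libraries. The rise from progenitor to immature was 29.9-fold at 1 month and 39.4-fold at 3 months. At 1 month the progenitor level of Ltf was below that in mesenchymal cells, which should lack it (below). Whether that progenitor level was the cells' own transcripts was not tested.

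Camp came up earlier in relative terms. It was at 6576, 57271, 61537 and 41274 CPM at 1 month and at 8232, 68112, 63413 and 42261 CPM at 3 months, so that its cycling level was 0.931-fold the immature level at 1 month and 1.07-fold at 3 months. Ngp was at 3968, 55763, 70382 and 49711 CPM at 1 month and at 4693, 61265, 73001 and 44037 CPM at 3 months. The progenitor mean again hid a spread among cells, since the median progenitor at 3 months held 380.1 CPM of Camp and no Ltf UMI.

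At 16 months the secondary genes fell from immature to mature cells by more than at 1 and 3 months. Ltf went from 11185 to 2567 CPM, a log2 ratio of −2.12 (−2.19 to −2.05). Camp went from 49065 to 15988 CPM (−1.62) and Ngp from 44651 to 13031 CPM (−1.78). The same step at 1 month gave −0.47 for Ltf, −0.58 for Camp and −0.50 for Ngp, and at 3 months −0.89, −0.59 and −0.73. In the median mature cell at 16 months Ltf and Camp had no UMI and Ngp was at 581 CPM, and after thinning 41.6% of these cells had a Ltf UMI, 50.5% a Camp UMI and 77.2% an Ngp UMI. At 1 month these shares were 98.6%, 100% and 100%. The mature cells at 16 months had a median of 3859 UMIs, and whether the mature stages of the libraries reach equally far in maturation was not tested.

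None of the 6 secondary and late genes was 2-fold higher in mature than in immature cells at 16 months, beside 28.5% of 4231 genes.

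Mmp8 had its highest level in the mature stage in all 3 libraries with named stages. At 1 month it was at 44.0, 224, 572 and 1342 CPM from progenitor to mature, and at 3 months at 14.95, 19.8, 666 and 906 CPM. At 16 months it stood at 1503 CPM in immature and 1547 CPM in mature cells, with intervals that overlap. Mature cells held 30.5-fold the progenitor level at 1 month and 60.6-fold at 3 months, the highest ratio of the 10 genes in both libraries. After thinning, 9.46% of progenitors at 1 month had an Mmp8 UMI, a share close to that of mesenchymal cells (below). Whether these progenitor UMIs were the cells' own transcripts was not tested. The share of thinned cells with an Mmp8 UMI went from 50% of immature to 91.2% of mature cells at 1 month and from 70.5% to 90.1% at 16 months.

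S100a8 and S100a9 were at higher levels in each later stage than in progenitors in both libraries with all 4 stages. S100a8 was at 22149.9, 107409, 133431 and 122429 CPM at 1 month and at 35357, 186105, 209953 and 161913 CPM at 3 months. S100a9 was at 19931, 113476, 142499 and 131994 CPM at 1 month and at 15754, 109876, 128045 and 96444 CPM at 3 months. At 16 months S100a8 went from 156339 CPM in immature to 103894 CPM in mature cells and S100a9 from 202121 to 142403 CPM. The means of both genes were thus high already in progenitors, but they hid a spread among cells. The median progenitor held 16745 CPM of S100a8 and 11108 CPM of S100a9 at 1 month, and 16714 and 1855 CPM at 3 months. Both genes were also found in cells that should lack them (below). The mature level of the 2 genes was 0.665-fold to 0.926-fold the immature level over the 3 libraries. The log2 ratio of mature over immature cells at 16 months was −0.59 for S100a8 and −0.51 for S100a9, between the 0.04 of Mmp8 and the −1.62 to −2.12 of the secondary genes. Across the 10 units of library and stage, log2(CPM + 10) of S100a8 correlated with that of Ltf at r = 0.93 and with that of Mmp8 at r = 0.56, and S100a9 with Ltf at r = 0.92 and with Mmp8 at r = 0.76, a description over units that share libraries.

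**Figure D1:**
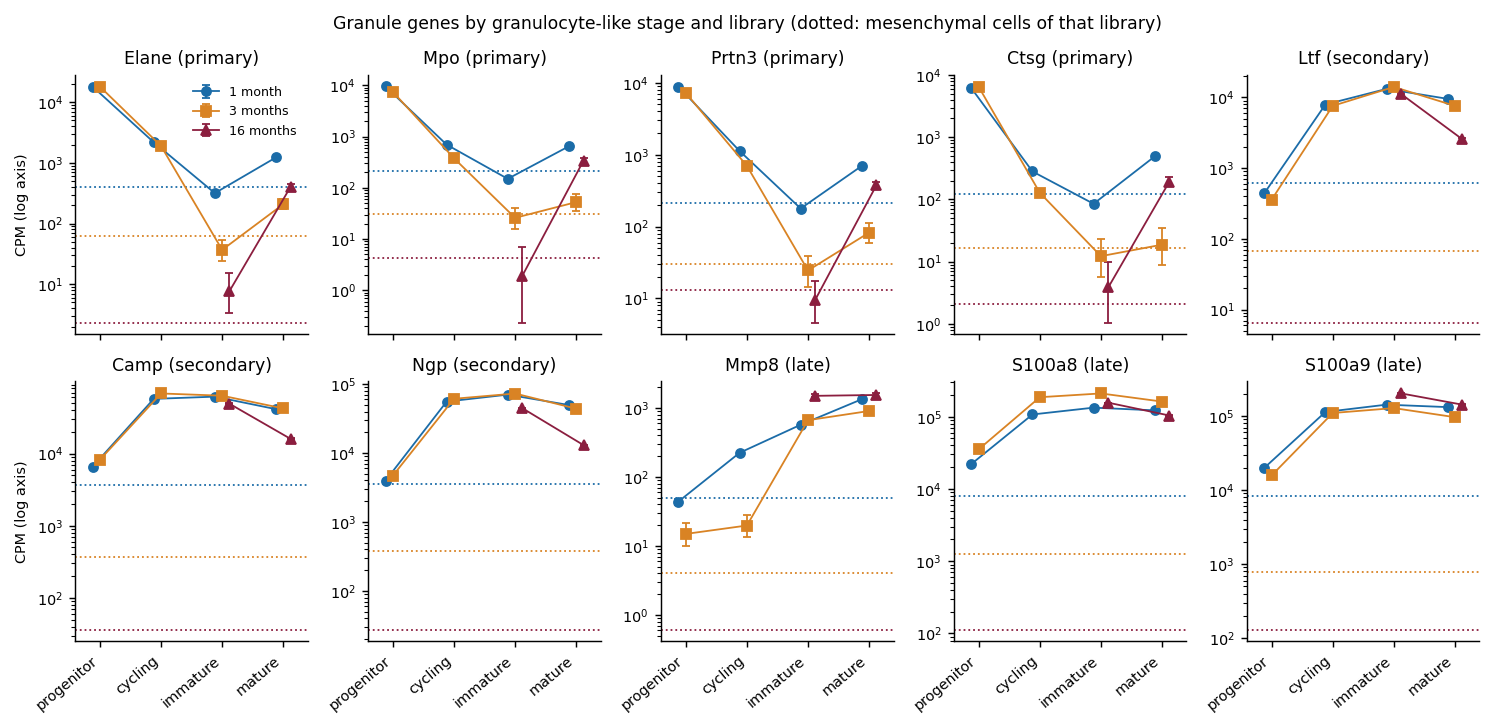
Level of each granule gene (CPM, log axis) by granulocyte-like stage in the 1, 3 and 16 month libraries, with exact Poisson 95% intervals and, as dotted lines, the level in mesenchymal cells of the same library. At 1 and 3 months the 4 primary genes start near the same level and drop to or below the mesenchymal line of their library by the immature stage, the secondary genes peak in cycling or immature cells, and Mmp8 is highest in mature cells.

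An order of cells that needs no stage names, but uses the same progenitor and mature marker lists, gave a similar sequence. It is therefore not independent of the stages. All granulocyte-like cells of a library, named or not, were ranked by the difference between their mature and progenitor marker scores and divided into quintiles. At 1 month Elane was at 12769 CPM in the first quintile and at 318 CPM in the last, Ngp peaked in the third at 62137 CPM, and Mmp8 went from 29.4 to 1242 CPM. The 79 cells at 1.5 months showed the sequence too, with Elane at 8322 CPM in the first quintile and no UMI in the last and Ltf at 11.7 and 9558 CPM, in quintiles of few cells. Since these cells may include other lineages (above), their sequence need not be one of granulocytes alone.

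At 16 months the primary genes were confined almost wholly to the first quintile, where Elane was at 4816 CPM against 57.9 CPM in the next. That first quintile also held Camp at 36.5% and Ngp at 20.9% of their highest quintile, against 7.21% and 4.71% at 1 month. Ltf peaked in the third quintile at 10988 CPM and was at 677 CPM in the last. Camp fell from a peak of 50061 CPM to 1572 CPM and Ngp from 42479 to 3558 CPM. S100a8 and S100a9 were still at 99668 and 147810 CPM in that last quintile, and Mmp8 at 1866 CPM. In the last quintile at 1 month, by contrast, Camp was still at 39694 CPM and Ngp at 47184 CPM.

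**Figure D2:**
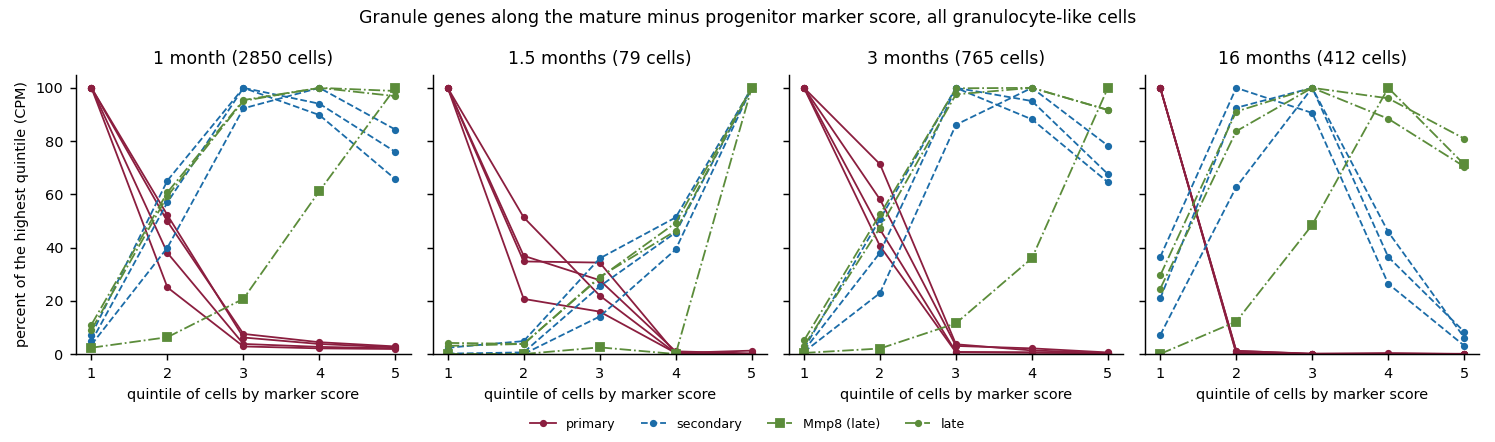
CPM of each granule gene in 5 equal bins of granulocyte-like cells ranked by marker score (mature minus progenitor), as percent of the gene's highest bin, for each library. Primary genes are highest in the first bin of all 4 libraries, and at 16 months the secondary genes have fallen below 10% of their peak in the last bin while S100a8 and S100a9 have not.

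The UMIs of primary and secondary genes were also counted together in single cells. After thinning to 3000 UMIs, 76.5% of progenitors at 1 month (71.8 to 80.7%) had at least 10 UMIs of primary and at least 10 of secondary genes. In cycling precursors the share was 18.8% (16.3 to 21.5%), in immature cells 0.524% and in mature cells 2.69%. At 3 months 22.9% of progenitors (16.0 to 31.1%) and 14.8% of cycling precursors (9.73 to 21.2%) held both. The secondary limit was often met by cells that should lack these genes at 1 month, where 60.3% of mesenchymal cells had at least 10 secondary UMIs, beside 76.8% of progenitors, so the 1 month share of progenitors with both says little of their own secondary transcripts. At 3 months 0.674% of mesenchymal cells met that limit, beside 31.3% of progenitors.

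Some unnamed subclusters carried primary genes beside markers of other lineages. At 1 month 150 cells led by Irf8, Ms4a6c and F13a1, which mark monocytic cells, held Elane at 3879 CPM, Mpo at 4429.7 CPM, Prtn3 at 3654 CPM and Ctsg at 2243 CPM, with Ltf at 503 CPM, below its level of 615 CPM in mesenchymal cells. Another 144 cells led by Ctla2a, Rgs1 and Myct1 held Mpo at 1002 CPM and Elane at 350.3 CPM, the latter below the mesenchymal level of 404 CPM. At 3 months 95 cells led by the basophil genes Prss34 and Mcpt8 held Elane at 3569.8 CPM and Mpo at 3768 CPM. At 16 months the 40 cells led by Prss34, Mcpt8 and Cpa3 held little Elane (31.3 CPM) and Mpo (17.9 CPM) but Ctsg at 246 CPM and Camp at 61891 CPM.

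RNA of the 10 genes was found in cells that should lack it, and how much differed by library. Mesenchymal cells held the 10 genes at summed levels of 25224, 227, 3002 and 337 CPM in the libraries of 1, 1.5, 3 and 16 months. This was 9.83%, 0.199%, 1.205% and 0.123% of the level in the granulocyte-like cells of the same library. The libraries had the same order by this summed level as by their share of granulocyte-like cells. Such RNA is called free RNA here as a name only, and its source was not tested.

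After thinning to 3000 UMIs, 9 of the 10 genes had a UMI in at least 10% of the 2465 mesenchymal cells at 1 month, beside 12.0% of all 27999 listed genes. The count was 2 of 10 at 1.5 months (beside 11.9%), 6 of 10 at 3 months (beside 11.3%) and 2 of 10 at 16 months (beside 12.3% of 31054 genes). The genes over this share in every library were S100a8 and S100a9. S100a8 had a UMI in 100%, 21.4%, 83.5% and 19.9% of thinned mesenchymal cells from the youngest to the oldest library, and before thinning in 100%, 55.0%, 95.3% and 50.3%. Camp had one in 99.3%, 9.75%, 47.4% and 6.65% of thinned cells and Elane in 51.8%, 1.93%, 12.4% and 0.376%. Median depths of mesenchymal cells were 10404, 9786, 6524 and 9955.5 UMIs. The exception at 1 month was Mmp8, with a UMI in 9.29% of thinned cells.

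The make-up of this RNA resembled that of the granulocyte-like cells. The share of each gene among the UMIs of the 10 was within 2-fold of its share in granulocyte-like cells for all 10 genes at 1, 1.5 and 3 months. At 1 month the mesenchymal level of single genes was 7.27% (Ctsg) to 13.7% (Mmp8) of the granulocyte level, with the primary genes at 7.27 to 7.82% and the secondary ones at 9.56 to 10.3%. At 3 months the range was 0.783% (Ctsg) to 2.09% (Mmp8). At 16 months 8 of 10 genes were within 2-fold, and the exceptions were Prtn3, whose share was 5.50-fold that in granulocyte-like cells, and Mpo, at 2.36-fold. With the cells of the named stages alone as the granulocyte side, an alternative added after the values were seen, the count at 16 months was 5 of 10.

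**Figure D3:**
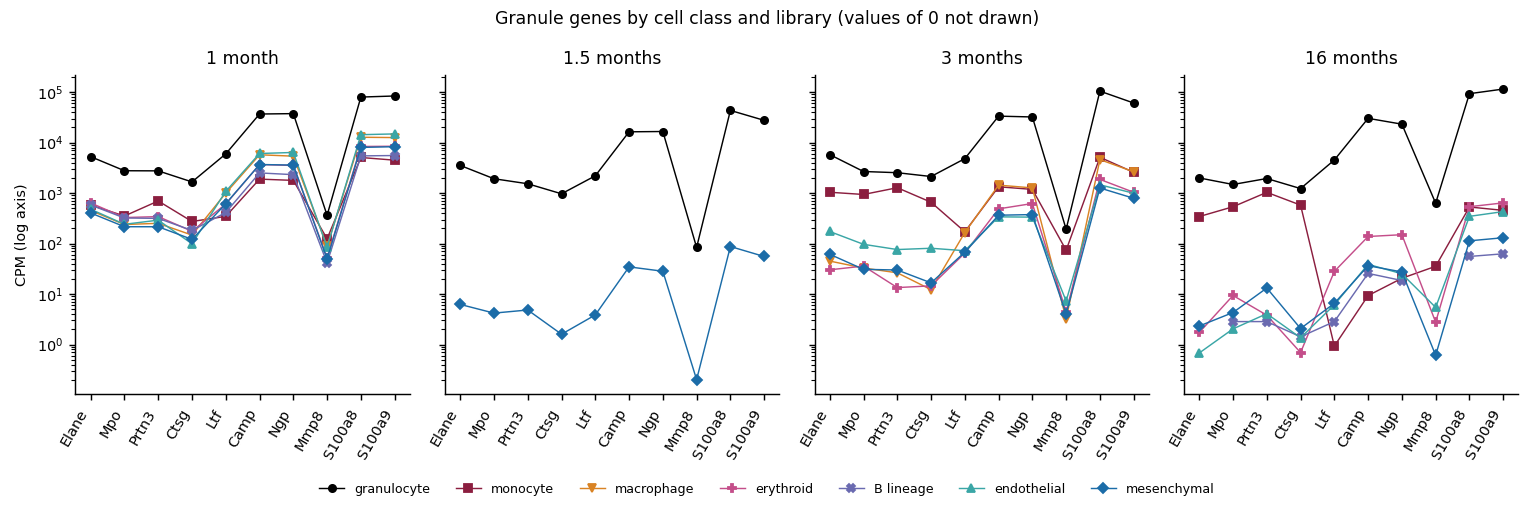
Level of the 10 granule genes (CPM, log axis) in each cell class with at least 50 cells, by library. In most classes the profile of a library runs parallel to that of its granulocyte-like cells at a lower level, while the monocyte-like line is flatter, with primary genes near or above the secondary ones at 16 months.

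Prtn3 in mesenchymal cells departed from that profile at 16 months and, in the adipocyte lineage, at 1.5 months. At 16 months the 3706 cells of this lineage (markers such as Adipoq, Lpl and Cxcl12) held Prtn3 at 15.9 CPM against 2.74 CPM of Elane, its neighbour on chromosome 10. After thinning, 5.08% of them had a Prtn3 UMI and 0.439% an Elane UMI. The ratio of Prtn3 to Elane UMIs was 5.79 (4.69 to 7.22) there and 0.974 (0.947 to 1.00) in granulocyte-like cells of that library. At 1.5 months adipocyte lineage cells held Prtn3 at 9.56 CPM, with a UMI in 3.26% of thinned cells, against 0.772 to 2.21% in the other mesenchymal groups. The ratio was 1.43 (1.00 to 2.05) in these cells, 0.553 (0.431 to 0.707) in chondrocytes and 0.433 in granulocyte-like cells.

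At 1 and 3 months the Prtn3 to Elane ratio of adipocyte lineage cells was 0.490 (0.446 to 0.538) and 0.552 (0.380 to 0.794), near the 0.524 and 0.438 of granulocyte-like cells. These are also the libraries in which free RNA was highest, with Elane at 449 and 47.0 CPM in the same cells. The counting interval of Prtn3 there at 1 month was 203 to 237 CPM. Whether these cells held an excess of the size of the 16 month level (15.9 CPM) was not tested. At 16 months the other mesenchymal group without a named lineage (401 cells) held Prtn3 at 16.1 CPM as well, and early mesenchymal progenitors (340 cells) at 9.77 CPM, against 2.20 CPM in the cells named mesenchymal only (259 cells). The stretch that Prtn3 shares with Plppr3 is chr10:79874476-79874634, at the start of both genes. Reads from it could not be told apart in these tables.

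Monocyte-like cells held the primary genes and Mmp8 at a higher percentage of the granulocyte level than the secondary genes. At 1 month the 577 monocyte-like cells held the secondary genes at 4.76 to 5.79% of the granulocyte level but Elane at 11.0%, Mpo at 12.7%, Ctsg at 16.5%, Prtn3 at 25.3% and Mmp8 at 34.3%. B lineage cells of that library also held Elane at 11.0% and Mpo at 11.6%, so that the Elane and Mpo values at 1 month did not set the monocyte-like cells apart. The 113 monocyte-like cells at 3 months held the secondary genes at 3.57 to 3.99%, Elane at 17.9%, Ctsg at 31.0%, Mpo at 35.1%, Prtn3 at 50.4% and Mmp8 at 38.4%. In the 71 such cells at 16 months Ltf had 1 UMI and Camp 10 UMIs, 0.0207% and 0.0309% of the granulocyte level, while Elane was at 17.2%, Mpo at 36.2%, Ctsg at 47.1% and Prtn3 at 53.3%. Prtn3 was the highest of the 4 primary genes by this percentage in all 3 libraries. Its level there was 698 CPM (675 to 722) at 1 month, 1278 CPM (1205 to 1355) at 3 months and 1036 CPM (976 to 1099) at 16 months.

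The UMIs were unevenly spread among these cells. After thinning, a Prtn3 UMI was seen in 65.4% of monocyte-like cells at 3 months and 34.8% at 16 months, and an Elane UMI in 37.4% and 20.3%. Mmp8 was seen in 30.7%, 17.8% and 10.1% of thinned monocyte-like cells at 1, 3 and 16 months, against 9.29%, 0.843% and 0.209% of mesenchymal cells. Median depths of monocyte-like cells were 6912, 6914 and 13498 UMIs.

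**Figure D4:**
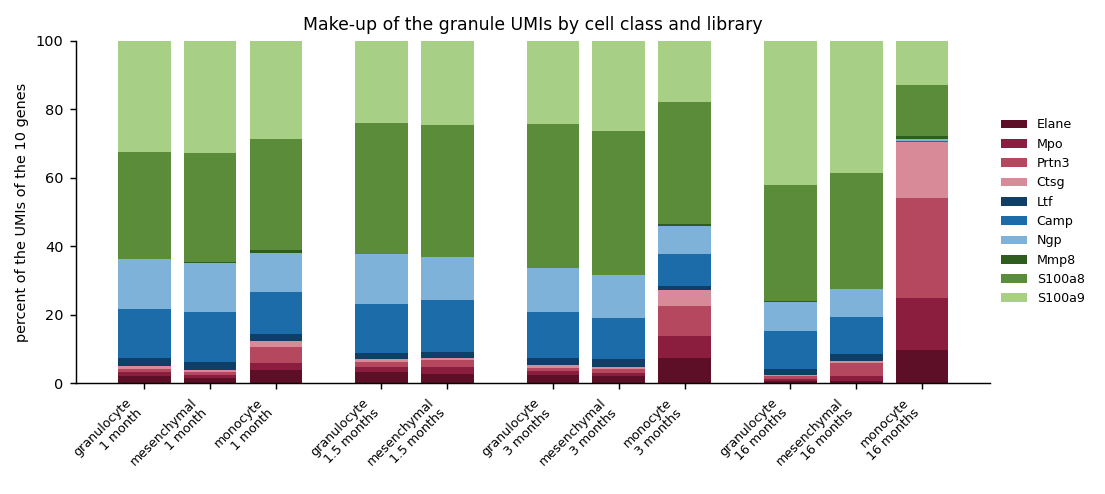
Share of each gene among the UMIs of the 10 granule genes (percent, stacked to 100) in granulocyte-like, mesenchymal and monocyte-like cells of each library (no monocyte-like class at 1.5 months). Mesenchymal bars resemble the granulocyte-like bar of their own library except for a wider Prtn3 band at 16 months, and the monocyte-like bar at 16 months is mostly primary genes.

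The 2 calprotectin genes stood in a ratio that differed more between libraries than between granulocyte-like and mesenchymal cells of a library. S100a8 UMIs per S100a9 UMI in granulocyte-like cells were 0.952, 1.57, 1.72 and 0.810 from the youngest to the oldest library, the last with an interval of 0.807 to 0.813. Mesenchymal cells gave 0.968, 1.58, 1.60 and 0.869 in the same libraries. The ratio is of UMIs and is compared only between cells and libraries, not as a difference in level between the genes. Within libraries the progenitors had the highest ratio of the named stages, at 1.11 at 1 month and 2.24 at 3 months, against 0.928 and 1.68 in mature cells. Age and library cannot be told apart here.

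**Figure D5:**
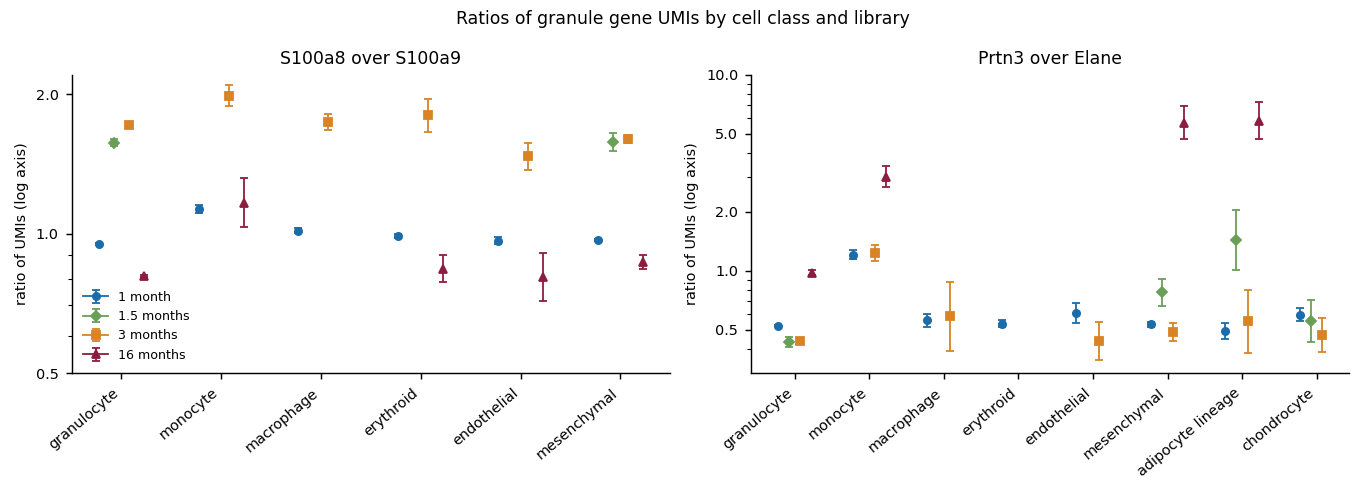
Ratio of S100a8 to S100a9 UMIs (left) and of Prtn3 to Elane UMIs (right), on log axes with 95% intervals, by cell class and library. The S100a8 to S100a9 ratio is higher at 1.5 and 3 months than at 1 and 16 months in every class that can be compared, and the Prtn3 to Elane ratio is above 2 only in monocyte-like, mesenchymal and adipocyte lineage cells at 16 months.

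Of 30 other granule genes, 25 were measured in progenitor or mature cells at 1 month, and 21 of them were at least 2-fold apart between these stages, beside 61.7% of all genes. At 3 months the count was 23 of 26, beside 62.6%. Of 12 other secondary genes, 10 were higher in mature cells and 1 was lower in both libraries, and of the other tertiary and secretory vesicle genes measured, 5 of 6 at 1 month and 6 of 7 at 3 months were higher and none was lower. Of 7 other genes of the primary list, 4 were lower and 1 higher at 1 month, and 5 were lower and 1 higher at 3 months. Over all genes 605 were higher and 2326 lower of 4749 at 1 month, and 822 higher and 2178 lower of 4796 at 3 months, so the other primary genes lay close to that background. The median log2 ratio was −1.15 for the primary list and 2.33 for the secondary list at 1 month, beside −0.97 for all genes. Lyz2, of the primary list and picked after its values were seen, had a ratio of 3.56.

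The genes with the highest ratios at 1 month were Fpr2 and Fpr1, receptors for formylated peptides, with 4.92 and 4.86 on the log2 scale, and Mmp9, the gelatinase of tertiary granules, with 4.80. Mmp9 went from 25.2 CPM in progenitors to 703 CPM in mature cells. The lowest were Cst7, an inhibitor of cathepsins, at −3.78, Prss57, a serine protease of primary granules, at −3.62, and Fcnb, a ficolin listed with the secondary genes, at −1.90. Fcnb was highest in cycling precursors in both libraries. At 16 months 10 of 27 genes were 2-fold apart between immature and mature cells, beside 31.4% of all genes, with none of 13 secondary genes higher and 5 lower. Olfm4, a secondary granule gene outside the naming rule and picked after its values were seen, was at 0.215 to 4.91 CPM in all stages at 1 and 3 months and at 539 and 207 CPM in immature and mature cells at 16 months. The 16 month table lists other genes than the rest (31054 against 27999), and whether it was counted against the same annotation was not settled, so a value of one gene may not mean the same in both tables.

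Of 8 regulators of granule genes measured at 1 month, 1 was at least 2-fold higher and 3 were lower in mature cells than in progenitors, beside 61.7% of all genes 2-fold apart. The counts at 3 months were 1 higher and 4 lower of 7, beside 62.6%. Cebpa was at 39.4 CPM in progenitors and 3.16 to 6.26 CPM in later stages at 1 month, and at 50.4 and 4.09 to 7.26 CPM at 3 months. At 16 months it was at 4.82 CPM in immature and 62.2 CPM (45.9 to 82.5) in mature cells, higher there than in either progenitor stage. That mature value rests on 48 UMIs, and the stage was led by Ccl6, Fabp4, Il1b, Ccrl2 and Wfdc17. Cebpa was also among the markers used for the adipocyte lineage, and whether these UMIs came from mature neutrophils was not tested. Gfi1, a repressor needed for neutrophil development, was at 32.2 and 49.3 CPM in progenitors of these libraries and at most 9.24 CPM in later stages. Myb, which maintains progenitors, was at 112 and 169 CPM in progenitors and 11.3 to 21.8 CPM afterwards. Cebpe was highest in cycling precursors, at 513 CPM at 1 month and 569 CPM at 3 months, the stage by which the secondary genes had risen most.

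Cebpb, which acts in late and emergency granulopoiesis, was highest in mature cells, at 797 CPM at 1 month, 1561 CPM at 3 months and 2806 CPM at 16 months. Spi1, which encodes PU.1, differed less, between 368 and 552 CPM at 1 month and between 266 and 345 CPM at 3 months. Runx1 ranged from 22.1 to 43.0 CPM at 1 month, from 25.9 to 34.9 CPM at 3 months and from 31.8 to 115 CPM at 16 months. Irf8, a monocyte regulator, was at 23.5 CPM or below in all named stages. Cebpd was listed in the 16 month table only, at 298 and 344 CPM in immature and mature cells.

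The genes most like each class were sought among 1902 genes with at least 100 CPM in 1 of the 10 units, by Pearson correlation of log2(CPM + 10) with the mean profile of the class. Imp3, Mrpl14, Gstm1, Phf5a and Nkg7 were nearest to the primary profile, at r = 0.97 to 0.96. The members themselves ranged from 0.98 (Ctsg) to 1.00 (Mpo). Nearest to the secondary profile were Anxa1 (0.99), 1110008P14Rik, Lyz2, Orm1 and Mapk13 (0.97). Nearest to the late profile were Samsn1 (0.99), Fpr2, Slfn4, Pirb and 9830107B12Rik (0.98). Nkg7 and Anxa1 were among the markers used to name stages. The units share libraries and cells of 1 lineage, and with so few of them many genes reach a high r.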

How the data were processed

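The authors deposited raw UMI counts per gene and barcode, 1 table per library, made with Cell Ranger 3.0.2 on a modified mm10 genome, and Seurat 2 is named in the submitters' processing notes. These counts carry no normalization. Tables held 8417, 5745, 4516 and 9229 barcodes with 108227184, 63258961, 32672631 and 93269331 UMIs at 1, 1.5, 3 and 16 months, and they list 27999, 27999, 27999 and 31054 genes. Barcodes passed, after the study's methods, if 200 to 6000 genes were detected and no more than 5% of UMIs were mitochondrial, so doublets were removed only through the upper gene limit.

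Each library was clustered by itself (Python 3.11.15, scipy 1.17.1, igraph 0.11.9, leidenalg 0.10.2). The 10 granule genes and the 30 other granule genes were left out of the 2000 variable genes, depth and mitochondrial percentage were regressed out, and 30 components and a resolution of 0.8 were used. Clusters with at least 3 markers of a cell type were given its name, with "-like" for granulocytes and monocytes, and granulocyte-like cells were clustered again for stages. A cluster in which granulocyte markers ranked first could be counted as granulocyte-like even where its leading genes gave it another name. Stages and classes under 50 cells were not used. The scripts were tested on simulated counts with known changes.

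Levels are summed UMIs over the total, as CPM. Intervals are at 95%, exact Poisson for levels, Clopper-Pearson for shares of cells and exact binomial for ratios. Shares of cells with a UMI were taken after thinning each cell to 3000 UMIs, leaving out shallower cells (163 mesenchymal cells at 3 months and 89 at 16 months). A gene entered a comparison of stages with at least 20 CPM in 1 of them. All 10 granule genes are reported, and of the other granule genes the 3 highest and 3 lowest log2 ratios in the library with most granulocyte-like cells, all listed regulators and the 5 genes most like each class. The members and lists were chosen with earlier results of these data known. Alternatives covered the clustering, the cell limits, doublet scores, thinning and the fold.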

Additional observations from a re-analysis of the deposited data

Results flagged for a closer look

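Barcodes outside the cell limits, which enter no value of the report, held the 10 granule genes above the level that a count of 0 allows. At 1 month 109 such barcodes held them at 88823 CPM, against 25224 CPM in the mesenchymal cells of that library. The 292 barcodes left out at 1.5 months held them at 225 CPM and mesenchymal cells at 227 CPM. At 3 months 336 barcodes held 7566 CPM against 3002 CPM, and at 16 months 3086 barcodes held 766 CPM against 337 CPM. What these barcodes contain was not tested.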

How the results depend on the processing

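No paired analysis was possible because each age has 1 library. The counts of genes stayed within 1.5 times their reported value in 154 of 171 alternative settings. At 1 month the exception was the count of primary genes highest in the earliest stage, which went from 4 to 0 when the highest doublet scores were left out, with Elane at a log2 ratio of 1.11. The count of granule genes in at least 10% of mesenchymal cells at 1.5 months went from 2 to 4 without thinning and to 1 at 1500 UMIs, and at 16 months from 2 to 5 without thinning. The other exceptions were all at 16 months. Primary genes highest in the earliest stage went from 0 to 4 by quintiles of the marker score, 4 with the Elane-led subcluster as the earliest stage, 3 with no regression and 2 without the highest doublet scores. Secondary and late genes 2-fold higher in the latest stage went from 0 to 3 by quintiles and 4 with the Elane-led subcluster. Other granule genes past the fold went from 10 to 24 by quintiles, 24 with the Elane-led subcluster, 4 at 3-fold and 2 without the highest doublet scores. Genes with a like share in mesenchymal cells went from 8 to 5 with the named stages only, 5 with no regression and 5 without the highest doublet scores.

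Of 293 log2 ratios of members under alternatives, 11 changed sign, 233 moved beyond their counting interval with the same sign and 49 did not. Besides Elane at 1 month, those that changed sign were at 16 months. By quintiles Elane was at −10.46 and Prtn3 at −10.42. With the Elane-led subcluster the ratios were −4.24 for Elane, −4.05 for Mpo, −4.29 for Prtn3, −4.57 for Ctsg, 2.80 for Ltf and 0.75 for Ngp. Elane was at −0.82 with no regression and Mpo at −0.68 without the highest doublet scores. The use of the Elane-led subcluster and of the named stages only was added after the data were seen, and that subcluster was singled out by its primary genes, so their being highest there was fixed by the choice. By construction, the subcluster setting replaces the earliest stage, and the quintiles replace both the earliest and the latest. At 16 months Elane was at 403 CPM in the mature stage and at 3.42 CPM in the last quintile. The cause of the other changes was not tested. A single library per age limits every comparison of ages, and levels of primary genes in later stages rest on few UMIs at 3 and 16 months.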
